A study of Mus musculus with 4 samples.

Results

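The genes described are 34 type I interferon response genes, chosen by name from 24441 gene symbols: the receptor chains, the transcription factors they switch on, and the antiviral and regulatory genes those factors induce. All 34 were found in the tables, and 23 had a mean of at least 1 FPKM (fragments per kilobase of transcript with fragments scaled to those mapped in the library) over the libraries and were tested for change. RNA was sequenced from sorted Langerhans cells, which are the resident dendritic cells of the epidermis, taken from mice aged 4 weeks. The groups were mice with a CD11c-Cre transgene and floxed Tfam alleles (Tfam cKO, 2 libraries) and wild-type mice (WT, 2 libraries). CD11c-Cre acts in every cell that expresses CD11c, so Langerhans cells are not its only target. The labels do not state whether the WT mice carried the Cre transgene, how many mice went into a library, or whether libraries came from separate mice. The p-values therefore measure only the spread between these libraries.

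Type I interferons signal through a receptor of the chains IFNAR1 and IFNAR2, which activates the factor ISGF3, whose subunits include STAT2 and IRF9. ISGF3 binds the interferon-stimulated response element in the promoters of its target genes, among them genes for sensors of viral RNA and for proteins that block viral entry, translation or release. TFAM packages mitochondrial DNA, and in mouse fibroblasts a shortage of TFAM is known to let this DNA reach the sensor cGAS and raise interferon-stimulated genes. The comparison asks whether these transcripts differed between Tfam cKO and WT Langerhans cells.

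No member passed the test, which was limma's moderated test on log2(FPKM + 1) with Benjamini-Hochberg adjustment over all tested genes. Of the 23 tested members, 0 were higher and 0 lower in Tfam cKO when the limma adjusted p had to be below 0.05, where 0.0183% of the 10910 tested genes passed. At an unadjusted limma p below 0.05 there were 2 members, Ifnar2 on the higher and Oas2 on the lower side, which is 8.7% of the tested members beside 6.21% of all tested genes. The tested members had a median log2 fold change of 0.10, and all tested genes one of 0.07. Among inducible genes, Ifit1, Ifit2, Ifit3, Mx1, Rsad2 and Ifi44 were below 1 FPKM in each of the 4 libraries. Isg15, Usp18 and Irf7, which are also inducible, averaged 15.7, 7.44 and 4.58 FPKM. Ifit2 and Rsad2, picked here after their values were seen, had depth-scaled fragment ratios of 2.08 and 2.76, Tfam cKO over WT. These ratios pool the fragments of a group's libraries, and neither gene passed in a fit without the filter. For Ifit1 and Ifit3 the ratios were 1.03 and 1.02. Over members with a mean below 1 FPKM they ran from 0.645 for Oasl1 to 3.87 for Rtp4.

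The response element was looked up in the promoters first, because it is the sequence that ISGF3 binds in its target genes. RefSeq promoters of build GRCm38.p6 were matched by symbol for 27 of the 34 members, 32 promoters in all, and the 250 bases before each start site were searched. The core GAAANNGAAA, or TTTCNNTTTC on the other strand, was present in 9 of the 32 member promoters (28.1%), beside 2.98% of all 32851 promoters. The palindrome TTCNNNGAA, the core of the gamma-activated site, was present in 8 member promoters (25.0%), beside 7.02% of all promoters, and 2 member promoters held both. A match describes the letters and not a bound site.

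The stretches below are from the 6 members of highest mean level with either motif, followed by Ifit3, Ifit1 and Rsad2, which were added after their values were seen because they hold the same core at a low level. Each reads 5′ to 3′ toward the start site, with the copies of the motif it is shown for in capitals and the rest in lower case, and overlapping copies run together. The core GAAANNGAAA, on either strand, is shown for Ifitm2 (minus strand, chr7:140955978-140956027), Bst2 (minus, chr8:71537567-71537622), Isg15 (minus, chr4:156200855-156200916), Stat2 (plus, chr10:128270256-128270305), Ifit3 (plus, chr19:34583353-34583436), Ifit1 (plus, chr19:34640765-34640833) and Rsad2 (minus, chr12:26456543-26456592). The gamma-activated core is shown for Irf1 (plus, chr11:53769904-53769952) and Ifnar2 (plus, chr16:91372549-91372597). The Bst2 stretch also holds 1 copy of it, which ends in the first capitals and is otherwise in lower case.
Ifitm2: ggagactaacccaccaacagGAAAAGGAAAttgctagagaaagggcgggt
Bst2: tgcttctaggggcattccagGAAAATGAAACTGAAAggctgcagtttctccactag
Isg15: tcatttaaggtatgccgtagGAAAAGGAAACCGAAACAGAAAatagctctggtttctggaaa
Stat2: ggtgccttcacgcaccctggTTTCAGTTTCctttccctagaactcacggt
Ifit3: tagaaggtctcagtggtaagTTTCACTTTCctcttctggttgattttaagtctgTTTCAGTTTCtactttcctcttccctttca
Ifit1: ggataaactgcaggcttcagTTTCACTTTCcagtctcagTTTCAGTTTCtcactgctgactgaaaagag
Rsad2: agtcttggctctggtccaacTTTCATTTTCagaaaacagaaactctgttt
Irf1: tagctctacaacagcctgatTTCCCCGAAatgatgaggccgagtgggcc
Ifnar2: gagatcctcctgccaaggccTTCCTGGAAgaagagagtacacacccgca

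The core GAAANNGAAA occurred in members of very unequal level. Isg15 holds 3 overlapping copies and had a mean of 15.7 FPKM over the 4 libraries, while Ifit1 holds 2 copies and had a mean of 0.202 FPKM. Ifitm2, with 1 copy, had a mean of 134 FPKM. Among members with a matched promoter, the core was in 6 of 19 tested members and in 3 of 8 members below 1 FPKM.

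Before the members were compared, the targeted gene and the purity of the sort were examined. Tfam was listed at 1.65 and 1.53 FPKM in Tfam cKO and at 3.17 and 1.61 FPKM in WT, so WT 2 was no higher than Tfam cKO 1. Values per gene also count reads of exons that the Cre leaves in place, and every direction given here rests on the labels. Cd207, which encodes langerin, was at 1528 and 1374 FPKM in Tfam cKO and at 2098 and 1495 FPKM in WT. The libraries also held keratinocyte RNA, with 7 fixed marker genes summing to 9157 and 8721 FPKM in Tfam cKO and 9468 and 6677 FPKM in WT. Markers of dendritic epidermal T cells, 6 genes, summed to 235.5 and 361 FPKM in Tfam cKO and 311 and 396 FPKM in WT. Of 7 macrophage and monocyte markers, 5 had a mean below 1 FPKM. Adgre1 was at 97.8 and 76.8 FPKM in Tfam cKO and 91.5 and 80.7 FPKM in WT, with overlapping groups. Lyz2 was higher without overlap, at 35.2 and 27.7 FPKM in Tfam cKO and 23.6 and 17.5 FPKM in WT (limma adjusted p = 0.663). Members are also expressed outside Langerhans cells, and in bulk RNA fewer cells of a type and less RNA per cell cannot be told apart. Relative depth, with WT 1 set at 1, was 0.884 and 1.56 in Tfam cKO and 1 and 1.365 in WT.

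**Figure D1:**
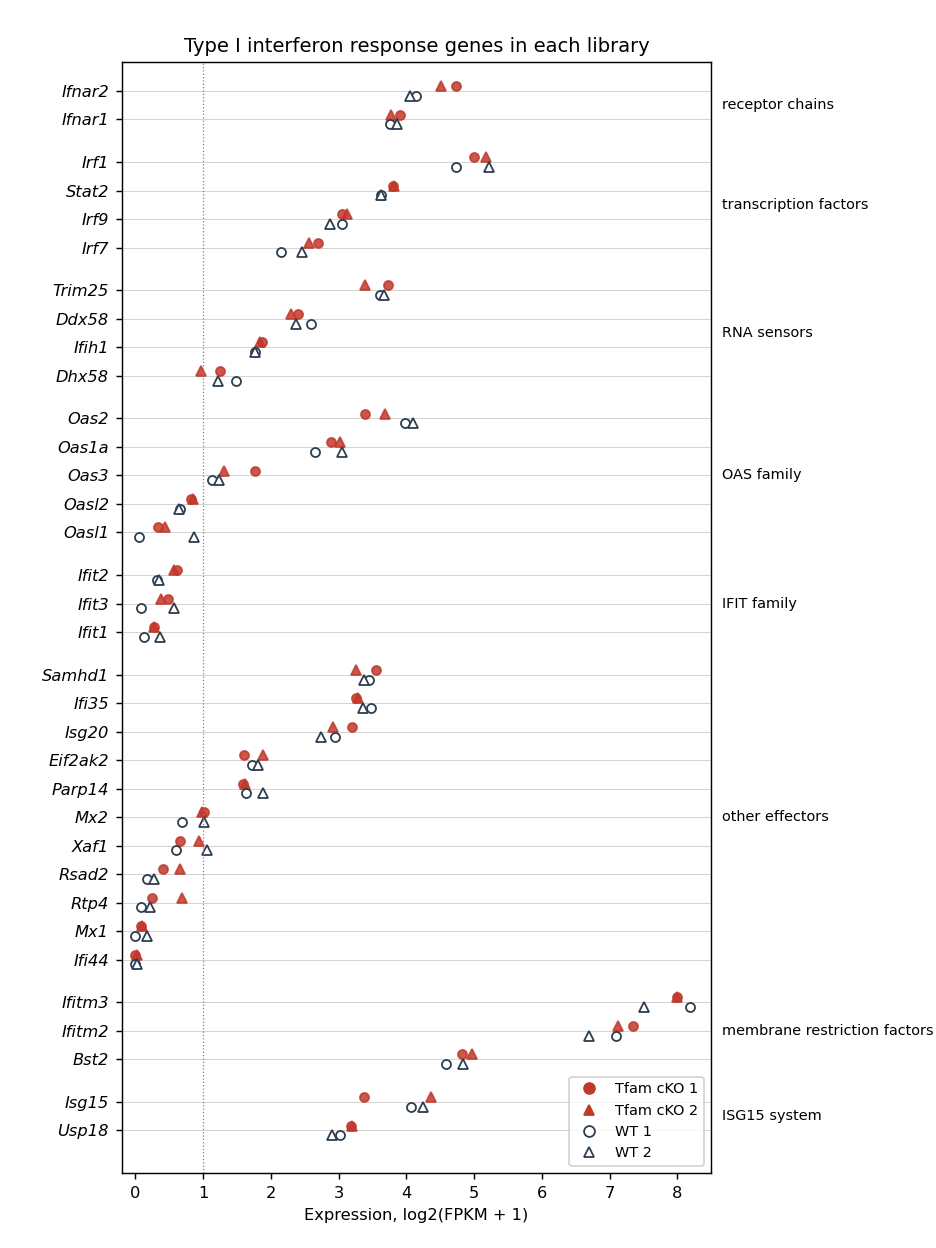
Expression of all 34 members as log2(FPKM + 1) in the 2 Tfam cKO libraries (filled) and the 2 WT libraries (open), with library 1 as circles and library 2 as triangles, grouped by role. The dotted line marks 1 FPKM in a single library, and the plot shows Ifitm3 and Ifitm2 far above the other members and the IFIT family at the low end.

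Of the receptor chains, Ifnar2 had the largest positive fold change among the tested members, and Ifnar1 lay close to 0. Ifnar2, which encodes the high-affinity ligand-binding chain, was at 25.5 and 21.7 FPKM in Tfam cKO and at 16.7 and 15.6 FPKM in WT. The groups did not overlap, with a log2 fold change of 0.52 (SE 0.17, 95% interval 0.13 to 0.90, n = 2 each), which did not pass (limma adjusted p = 0.660). The log2 difference was 0.59 between the libraries numbered 1 and 0.45 between those numbered 2, and over the alternatives tried the fold change ranged from 0.40 to 0.63 and the adjusted p from 0.152 to 1. Ifnar1, which encodes the other chain, was at 14.0 and 12.7 FPKM in Tfam cKO and at 12.6 and 13.5 FPKM in WT. The groups overlapped, and the log2 fold change of 0.03 had a 95% interval from −0.34 to 0.39.

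The 4 transcription factor genes had log2 fold changes from 0.12 to 0.33, and none passed (limma adjusted p of at least 0.869). Stat2, a subunit of ISGF3, was at 12.9 and 13.1 FPKM in Tfam cKO and at 11.4 and 11.3 FPKM in WT. Irf9, the DNA-binding subunit of ISGF3, was at 7.27 and 7.71 FPKM in Tfam cKO and at 7.29 and 6.36 FPKM in WT. Stat2 separated the groups by a log2 fold change of 0.18 (95% interval −0.17 to 0.54), while the Irf9 values overlapped, with Tfam cKO 1 just under WT 1. Irf7, which amplifies interferon induction in a second wave, was at 5.50 and 4.89 FPKM in Tfam cKO and at 3.42 and 4.5 FPKM in WT. Its log2 fold change was 0.33 (95% interval −0.09 to 0.74), with a difference of 0.56 between the libraries numbered 1 and 0.10 between those numbered 2. Irf1, a factor induced by interferons and by interferon gamma most of all, was at 30.9 and 35.3 FPKM in Tfam cKO and at 25.6 and 36.2 FPKM in WT. The 2 WT libraries of Irf1 enclosed both Tfam cKO libraries.

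Genes for the sensors of viral RNA did not separate in one direction. Ifih1, which encodes MDA5, was at 2.67 and 2.59 FPKM in Tfam cKO and at 2.41 and 2.40 FPKM in WT, a log2 fold change of 0.09 with a 95% interval from −0.31 to 0.50. Trim25, a ubiquitin ligase that acts on RIG-I, was at 12.2 and 9.44 FPKM in Tfam cKO and at 11.2 and 11.7 FPKM in WT. The Ifih1 groups were separate by a narrow margin, and those of Trim25 overlapped. Ddx58, which encodes RIG-I, averaged 4.10 ± 0.254 FPKM in Tfam cKO and 4.60 ± 0.591 FPKM in WT (SD, n = 2 each). Dhx58, which encodes LGP2, averaged 1.17 ± 0.300 FPKM in Tfam cKO and 1.56 ± 0.340 FPKM in WT (SD, n = 2 each). Both pairs of groups overlapped, with limma adjusted p of 0.956 for Ddx58 and 0.926 for Dhx58.

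The 3 tested genes of the OAS family, whose enzymes make the oligoadenylates that switch on RNase L, did not pass the test, and their log2 fold changes had both signs. Oas2 was at 9.53 and 11.8 FPKM in Tfam cKO and at 14.8 and 16.2 FPKM in WT. Both Tfam cKO libraries were below both WT libraries, with a log2 fold change of −0.51 (SE 0.17, 95% interval −0.91 to −0.11, n = 2 each), which did not pass (limma adjusted p = 0.662, from 0.163 to 1 over the alternatives tried). The log2 difference was −0.59 between the libraries numbered 1 and −0.43 between those numbered 2. The 6 T cell markers had a median log2 fold change of −0.36, and it was positive for 2 of them. Only Cd3g was lower without overlap, at 36.9 and 70.1 FPKM in Tfam cKO and 79.2 and 85.1 FPKM in WT, and it ordered the libraries as Oas2 did. Thy1 was higher without overlap, the groups overlapped for Cd7, Cd3e, Cd3d and Il2rb, and the 6-gene sum given above did not order the libraries as Oas2 did. The part of T cell RNA in the Oas2 difference was not tested. Oas3 was at 2.41 and 1.48 FPKM in Tfam cKO and at 1.19 and 1.36 FPKM in WT, and its log2 fold change of 0.35 (95% interval −0.16 to 0.87) came mostly from Tfam cKO 1, with 0.63 between the libraries numbered 1 and 0.07 between those numbered 2. Oas1a averaged 6.76 ± 0.524 FPKM in Tfam cKO and 6.29 ± 1.38 FPKM in WT (SD, n = 2 each), with overlapping groups. Oas1a has several near-identical neighbours, so its reads could be divided between copies.

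The membrane restriction factors held the 2 members of highest level. Ifitm3, a protein that blocks fusion of entering viruses, was at 254 and 254 FPKM in Tfam cKO and at 291 and 181 FPKM in WT, above 98.2% of all tested genes by its mean. Its 2 WT libraries enclosed both Tfam cKO libraries, and the log2 fold change was 0.15 with all libraries and −0.20 without WT 2. Ifitm2, a neighbouring and closely similar gene whose reads may be shared with Ifitm3, was at 161 and 138 FPKM in Tfam cKO and at 135 and 102 FPKM in WT. The Ifitm2 groups were separate, with a log2 fold change of 0.34 (95% interval −0.14 to 0.82, limma adjusted p = 0.882). The lowest Ifitm2 and Ifitm3 values were in WT 2, the library with the lowest keratinocyte marker sum, and the part of keratinocyte RNA in them was not tested. Bst2, which encodes tetherin, was at 27.4 and 30.3 FPKM in Tfam cKO and at 22.9 and 27.6 FPKM in WT. Tfam cKO 1 lay just below WT 2, so the Bst2 groups overlapped (log2 fold change 0.19, 95% interval −0.21 to 0.59). Bst2 also marks plasmacytoid dendritic cells. Their defining gene Siglech was low but higher in Tfam cKO without overlap, at 0.892 and 0.587 FPKM in Tfam cKO and 0.338 and 0.0824 FPKM in WT. These values rest on 18 and 23 fragments in Tfam cKO and 7 and 2 in WT. The 6 fixed markers of these cells summed to 1.72 and 1.73 FPKM in Tfam cKO and 0.893 and 0.637 FPKM in WT. Cox6a2 was also higher without overlap, at 0.414 and 0.968 FPKM in Tfam cKO and 0.183 and 0 FPKM in WT. The groups overlapped for Ccr9, Pacsin1 and Spib, and Klk1 was at 0 in all libraries. By group mean, Ccr9 and Pacsin1 were lower in Tfam cKO, at 0.0578 and 0.175 FPKM against 0.0863 and 0.32 FPKM in WT. The part of RNA from these cells in the Bst2 values was not tested.

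The ubiquitin-like modifier gene Isg15 and its protease gene Usp18 differed in how steady they were. Isg15 was at 9.33 and 19.6 FPKM in Tfam cKO and at 15.7 and 18.0 FPKM in WT. The 2 Tfam cKO libraries enclosed both WT libraries, and the log2 fold change of −0.29 (95% interval −0.96 to 0.38) became 0.21 without Tfam cKO 1. Cufflinks' 95% interval for Isg15 was 6.82 to 11.8 FPKM in Tfam cKO 1 and 16.8 to 22.4 FPKM in Tfam cKO 2, so those libraries differed beyond their counting error. Tfam cKO 1 was also the library with the lowest T cell marker sum, and the part of T cell RNA in the Isg15 value was not tested. Usp18, which removes ISG15 and restrains signalling from IFNAR2, was at 8.08 and 8.14 FPKM in Tfam cKO and at 7.10 and 6.45 FPKM in WT. The Usp18 groups were separate, with a log2 fold change of 0.23 (95% interval −0.13 to 0.59, limma adjusted p = 0.896).

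Among the other antiviral effectors, 5 genes were tested and their log2 fold changes lay between −0.16 and 0.21. Parp14, an ADP-ribosyltransferase, was at 2.01 and 2.06 FPKM in Tfam cKO and at 2.11 and 2.69 FPKM in WT. Ifi35, an interferon-induced leucine zipper protein gene, was at 8.56 and 8.78 FPKM in Tfam cKO and at 10.1 and 9.30 FPKM in WT. Both Tfam cKO libraries were below both WT libraries for these genes, with log2 fold changes of −0.16 for Parp14 and −0.14 for Ifi35 that did not pass (limma adjusted p = 0.955 and 0.945). Samhd1, a dNTP hydrolase that restricts retroviruses, averaged 9.65 ± 1.53 FPKM in Tfam cKO and 9.64 ± 0.333 FPKM in WT (SD, n = 2 each). Eif2ak2, which encodes the RNA-activated kinase PKR, averaged 2.38 ± 0.465 FPKM in Tfam cKO and 2.40 ± 0.147 FPKM in WT (SD, n = 2 each). Isg20, an exonuclease gene, averaged 7.35 ± 1.15 FPKM in Tfam cKO and 6.18 ± 0.734 FPKM in WT (SD, n = 2 each). The groups overlapped for Samhd1, Eif2ak2 and Isg20.

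**Figure D2:**
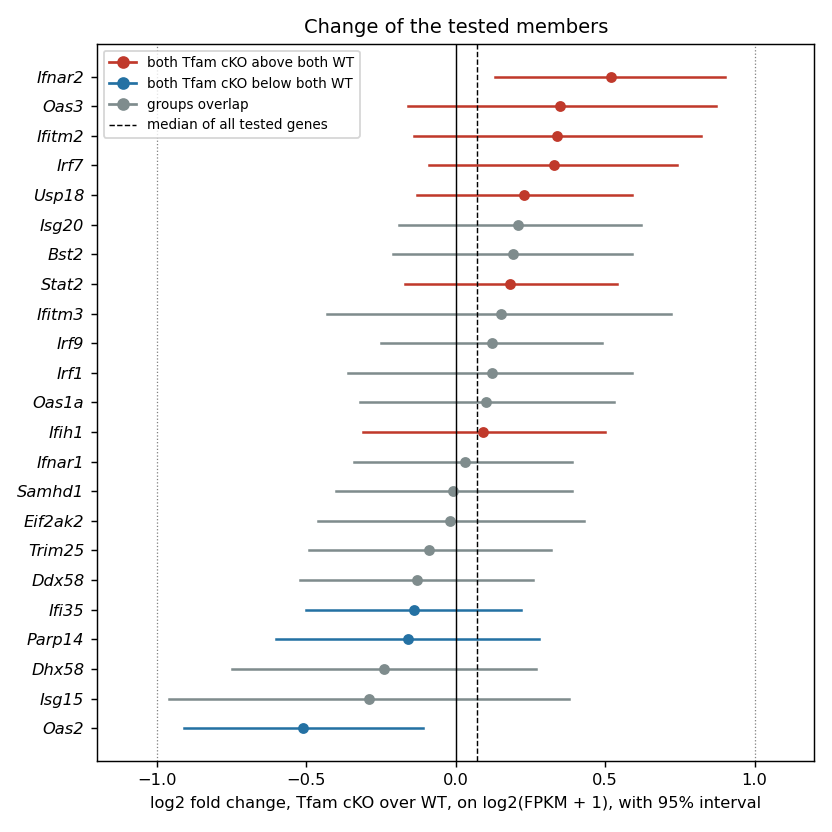
Log2 fold change of the 23 tested members, Tfam cKO over WT, with the 95% interval from limma, ordered from the highest to the lowest. Colours show whether the 2 groups of libraries are separate or overlap, the dashed line is the median of all tested genes at 0.07, and the dotted lines mark 2-fold changes, which no interval reaches.

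For all 23 tested members the 95% interval of the fold change lay within 2-fold in either direction on the log2(FPKM + 1) scale, with bounds from −0.96 for Isg15 to 0.90 for Ifnar2. The same held for 94.5% of all tested genes. These intervals are per gene, are not adjusted for the number of genes, and understate changes of members near 1 FPKM because of the added pseudocount.

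For the tested members, Tfam cKO lay above WT without overlap in 7 of 23 (30.4%), beside 25.4% of all tested genes, and below in 3 (13%), beside 9.75%. The 7 were Ifnar2, Stat2, Irf7, Ifih1, Oas3, Ifitm2 and Usp18, and the 3 were Oas2, Parp14 and Ifi35. After quantile normalization 3 members were above, beside 16.3% of all genes, and 4 below, beside 17.3%. After rescaling to equal totals 3 were above, beside 14.3%, and 5 below, beside 19.8%. That rescaling moved the median log2 fold change of all genes by −0.11. Relative to the median of all genes, the members' median was 0.029 as deposited, 0.024 with quantile-normalized values and 0.033 with equal totals, but −0.109 when WT 1 was left out. The fold change was positive for 14 of the 23 members (60.9%), beside 65.2% of all tested genes, and for 11 after rescaling, beside 43.2%. Of the 4 libraries, Tfam cKO 1 was the highest for 9 members and the lowest for 5, Tfam cKO 2 for 6 and 4, WT 1 for 4 and 6, and WT 2 for 4 and 8.

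**Figure D3:**
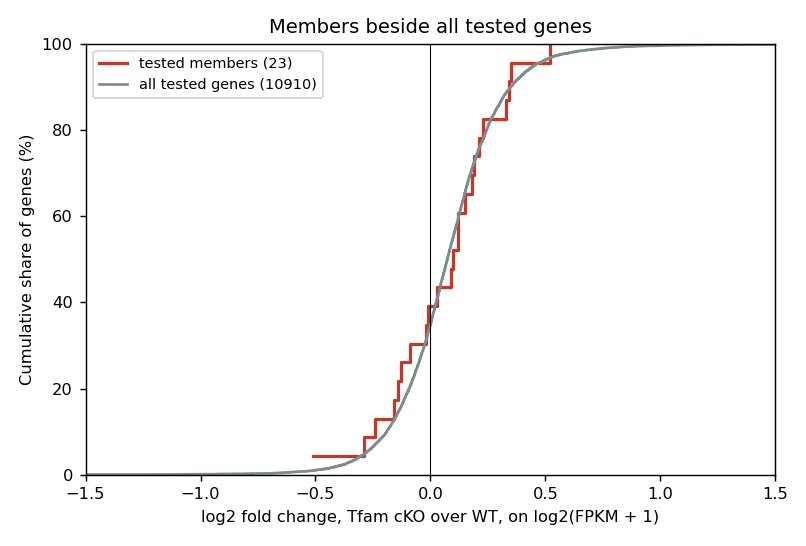
Cumulative share of genes, in percent, against the log2 fold change, Tfam cKO over WT, for the 23 tested members and for all 10910 tested genes. Genes beyond the axis are not drawn. The curves cross at several points, with medians of 0.10 for the members and 0.07 for all genes.

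The other 11 members had a mean below 1 FPKM and were not tested. Together they summed to 4.38 and 5.35 FPKM in Tfam cKO and to 2.33 and 5.08 FPKM in WT, with WT 1 lowest. Cufflinks' intervals give the number of fragments that each estimate is worth, and for these members it ranged from 0 to 49 in a library. Without the filter, Tfam cKO lay above WT without overlap in 4 of the 11 and below in 0. In that fit the shares for all 34 members were 32.4% above and 8.82% below, beside 21.6% and 10.3% of all 16426 genes. All genes include those of at least 1 FPKM, with shares of 25.4% above and 9.75% below. The shares among genes below 1 FPKM alone were not taken, so the 11 have no like background. The 4, named after their values were seen, were Ifit2, Rsad2, Oasl2 and Rtp4.

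Ifit2, which binds RNA and restrains translation, was at 0.537 and 0.487 FPKM in Tfam cKO and at 0.247 and 0.272 FPKM in WT. These values rest on 22 and 34 fragments in Tfam cKO and 10 and 16 in WT, a ratio of 2.08 after scaling for depth, whose exact 95% interval from 1.29 to 3.46 covers counting error only. Rsad2, which encodes the antiviral enzyme viperin, was at 0.328 and 0.582 FPKM in Tfam cKO and at 0.124 and 0.213 FPKM in WT. It rests on 14 and 43 fragments in Tfam cKO and 6 and 14 in WT, a ratio of 2.76 (1.63 to 4.85, counting error only). Neither passed in the unfiltered limma fit, with an adjusted p of 0.856 for Ifit2 and 0.860 for Rsad2. The unadjusted limma p in that fit was 0.0146 for Ifit2 and 0.0432 for Rsad2. Oasl2, an OAS-like gene, was at 0.775 and 0.812 FPKM in Tfam cKO and at 0.583 and 0.558 FPKM in WT, a ratio of 1.39 (0.964 to 2.01). Rtp4, a chaperone-like protein gene induced by interferon, was at 0.189 and 0.609 FPKM in Tfam cKO and at 0.0555 and 0.162 FPKM in WT, with 17 of its 20 Tfam cKO fragments in Tfam cKO 2. With 5 fragments in WT, the Rtp4 ratio was 3.87 (1.41 to 13.2, counting error only).

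For the remaining 7 the groups overlapped. Ifit1 was at 0.208 and 0.216 FPKM in Tfam cKO and at 0.0920 and 0.292 FPKM in WT, with a depth-scaled fragment ratio of 1.03 (exact 95% interval 0.488 to 2.17). Ifit3 had a ratio of 1.02 (0.498 to 2.12), with 7 and 11 fragments in Tfam cKO and 1 and 16 in WT. Oasl1, known in mice as a brake on IRF7 translation, ranged from 0.0391 FPKM in WT 1 to 0.830 FPKM in WT 2, a span that contained both Tfam cKO libraries. Ifit1, Ifit3, Oasl1 and the GTPase gene Mx1 each had their lowest and their highest value in WT. Mx2, the other Mx GTPase gene, averaged 1.0 ± 0.0401 FPKM in Tfam cKO and 0.811 ± 0.288 FPKM in WT (SD, n = 2 each). Xaf1, a pro-apoptotic gene, averaged 0.754 ± 0.247 FPKM in Tfam cKO and 0.804 ± 0.408 FPKM in WT (SD, n = 2 each). Ifi44 was backed by 0 and 1 fragments in Tfam cKO and 0 and 1 in WT, and Mx1 by 1 and 3 in Tfam cKO and 0 and 4 in WT, so no fold is given for them.

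**Figure D4:**
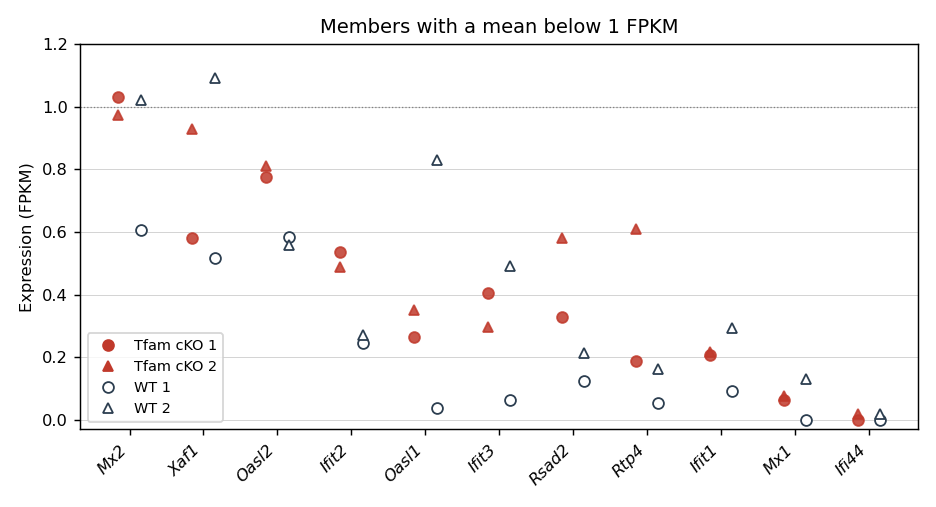
Expression in FPKM of the 11 members with a mean below 1 FPKM, in the 2 Tfam cKO libraries (filled) and the 2 WT libraries (open), with library 1 as circles and library 2 as triangles. For Ifit2, Rsad2, Oasl2 and Rtp4 both filled symbols lie above both open ones, and for Oasl1, Ifit1, Ifit3 and Mx1 the WT libraries are the lowest and the highest.

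The rest of the pathway was examined through lists fixed by known function. None of the 21 interferon genes reached a mean of 1 FPKM, and 20 and 17 of them were listed at 0 in Tfam cKO and 21 and 17 in WT. The keratinocyte interferon gene Ifnk, the highest of them, was at 0.295 and 0.768 FPKM in Tfam cKO and at 0 and 0.373 FPKM in WT. The Ifnk groups overlapped, and its values rest on 2 and 9 fragments in Tfam cKO and 0 and 4 in WT. Upstream, 14 sensing and induction genes were tested and 0 passed, with a median log2 fold change of 0.08. The adaptor gene Ticam1 alone had an unadjusted p below 0.05, at 13.2 and 10.9 FPKM in Tfam cKO and 8.91 and 7.76 FPKM in WT (limma adjusted p = 0.685). Mb21d1, which encodes cGAS, was at 1.72 and 1.47 FPKM in Tfam cKO and at 1.98 and 1.47 FPKM in WT, and Tmem173, which encodes STING, at 3.75 and 4.2 FPKM in Tfam cKO and at 4.45 and 2.68 FPKM in WT. Their groups overlapped, and Ticam1, Mb21d1 and Tmem173 were named after their values were seen.

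Of a further 76 interferon-stimulated genes, 54 were tested, 0 passed and the median log2 fold change was 0.05. In 12 of these (22.2%) Tfam cKO lay above WT without overlap, beside 25.4% of all tested genes, and in 8 (14.8%) below, beside 9.75%. Slfn5, a Schlafen family gene, was at 3.08 and 2.71 FPKM in Tfam cKO and 1.68 and 1.31 FPKM in WT, and Mndal, of the interferon-inducible p200 family, at 12.3 and 16.0 FPKM in Tfam cKO and 21.9 and 19.7 FPKM in WT. Named after their values were seen, these were the only genes of that list with an unadjusted p below 0.05, and neither passed (limma adjusted p = 0.601 and 0.662). The 11 receptor kinases and brakes, the 9 tested genes weighted to interferon gamma and the 12 class I presentation genes also had 0 members past the threshold, with median log2 fold changes of 0.08, 0.11 and 0.09. The class I light chain gene B2m was at 1376 and 1534 FPKM in Tfam cKO and at 1638 and 1412.5 FPKM in WT.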

How the data were processed

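The deposited values are FPKM per gene and library, made by the authors with Cufflinks and given with its 95% interval, per the file headers. Per the submitters' processing notes CASAVA and Cufflinks were used, with no version stated, on build mm10. No source used here names the aligner or the annotation. Only 11.3% of 23519 symbols overlapped the gene of their name in GRCm38, which is the same build as mm10. The listed positions thus do not match the stated build, and none of them is used.

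FPKM of symbols at several loci (301 of 24441) were summed, and the 10910 symbols averaging 1 FPKM or more were tested. Log2(FPKM + 1) values of Tfam cKO and WT were compared two-sided with limma 3.58.1 (R 4.3.3) in a model of genotype alone. Variances were moderated along the mean, and p-values were adjusted by Benjamini-Hochberg with a threshold of 0.05. An exact permutation test of 2 against 2 libraries cannot go below 0.333 and was not used. The 95% intervals use the moderated variance. The fit was tested on simulated data whose changes were all larger than those of the members. That test therefore does not show how often changes of the members' size would be found.

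Total reads are unknown. The interval spans 2 standard errors on each side, which gives effective fragment numbers, and 97 genes with whole numbers within 0.02 in all libraries gave relative depth. Fragment ratios use exact binomial intervals, which cover counting error only.

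The replicate numbers were not used as pairs. Deviations of same-numbered libraries correlated with 0.26 across genes, but 2 pairs are fewer than the 3 needed, and the labels tie the number to no animal or batch. Y-linked transcripts summed to 0 and 21.7 FPKM in Tfam cKO and 0 and 58.8 FPKM in WT, so their presence went with the replicate number. Their presence is a sign of male cells, and sex was not in the model. Differences between the libraries of each number are given above for Ifnar2, Irf7, Oas2 and Oas3. For some other members the 2 differences had opposite signs, among them Isg15 (−0.69 and 0.12), Ifitm3 (−0.20 and 0.49) and Trim25 (0.12 and −0.29).

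Members and lists were chosen with earlier results of these data known. All members are accounted for. Values per library are given for members with separate groups and a mean of at least 1 FPKM, for the 10 of highest level, and for Ifnar1, Ifnar2, Stat2, Irf9 and Irf7. Other genes are Tfam, Cd207, list genes past the threshold and up to 2 of highest level per list. Thy1, Cd3e, Cd3d and Il2rb are named to give the fixed list of T cell markers in full. Ccr9, Pacsin1, Spib and Klk1 complete that of plasmacytoid dendritic cells. Any further gene is said to be named after its values were seen. Alternatives were quantile normalization, equal totals, no filter or one at 5 FPKM, a pseudocount of 0.1 or 5, no trend, robust moderation, a block for the replicate number, the highest locus, a threshold of 0.1 and each library left out. Plots used matplotlib 3.10.9 (Python 3.11.15).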

Additional observations from a re-analysis of the deposited data

How the results depend on the processing

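The count of members past the threshold was 0 under each alternative tried, the threshold of 0.1 included, and the lowest limma adjusted p of a member over them was 0.152, with the replicate number as a block. With that replicate block 184 genes were called over all genes, against 2 without it, and it changed no member's call. The labels share only a number, so this is not read as pairing. Y-linked transcripts, a sign of male cells, were seen only in the libraries numbered 2. The block therefore cannot tell the sex of the mice apart from the number, and the main model holds genotype alone. Over all genes the count was 0 with no filter, 1 with the filter at 5 FPKM, 1 with a pseudocount of 5, 5 with robust moderation, and 16 to 82 with a library left out, where the group with 1 library takes its spread from the other group.

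Members whose Tfam cKO values all lay above WT numbered 3 after quantile normalization, 3 after rescaling to equal totals, 11 with no filter (34 members) and 4 with the filter at 5 FPKM (16 members, a share of 25.0% beside 28.5% of all genes), and those below numbered 5 after rescaling. With a library left out, where fewer libraries must be separate, these counts ranged from 10 to 11 above and from 5 to 7 below. The shares above were then 43.5% to 47.8% of members beside 37.3% to 55.8% of all genes, and those below 21.7% to 30.4% of members beside 19.0% to 32.0% of all genes. The members' median was 0.016 after quantile normalization, −0.003 after rescaling and between 0.026 and 0.127 with a library left out. Its distance from the median of all genes ranged from −0.109 (without WT 1) to 0.058 with a library left out. 

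Of the 23 tested members, 15 kept their direction in all alternatives and 8 did not. Ifnar1 was −0.083 after quantile normalization and −0.094 after rescaling, where Irf1 was −0.003 and Oas1a −0.005. With a library left out, log2 fold changes lay between these bounds, −0.039 to 0.089 for Ifnar1, −0.13 to 0.36 for Irf1, −0.093 to 0.30 for Oas1a, −0.15 to 0.14 for Samhd1, −0.16 to 0.12 for Eif2ak2, −0.20 to 0.49 for Ifitm3, −0.79 to 0.21 for Isg15 and −0.25 to 0.084 for Trim25. The cause was not tested. At this depth and with 2 libraries per group, the fold change of Ifnar2, at 0.52 on the log2 scale, was not past the threshold.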
